A study of Sus scrofa with 6 samples.

Results

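Capillary and arterial endothelial cells were taken as 1174 of the 83559 cells kept from 6 single-cell RNA libraries, and they were picked by the UMIs (unique molecular identifiers, each 1 captured RNA molecule) measured in them. A cell was kept with at least 500 gene UMIs, at least 300 detected genes and at most 20% mitochondrial UMIs. It passed as endothelial with at least 3 UMIs over Pecam1 (ENSMUSG00000020717), Cdh5 (ENSMUSG00000031871), Kdr (ENSMUSG00000062960) and Egfl7 together, and with no UMI of Ptprc, the leukocyte gene that encodes CD45. Among these, a cell was a member with fewer than 2 UMIs over the venous genes Ackr1 and Selp and fewer than 2 over the lymphatic genes Mmrn1, Prox1 and Reln. The rule gave 97 cells in the library labelled pretreatment, 157 in continuous, 106 in chronic, 311 in acute, 183 in irradiated and 320 in normal. The levels of the genes in the rule are therefore no finding, and a cell entered as capillary or arterial because it lacked venous and lymphatic RNA, not because it held capillary or arterial RNA.

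The labels name pig skin of the red duroc breed as the tissue and give no sort for any library. The labels gave a patch with 1 mg of the iron chelator deferoxamine for pretreatment (2 weeks ahead of radiotherapy), continuous (18 weeks over the whole experiment), chronic (4 weeks once recovery from radiation was over) and acute (the 12 weeks of recovery). The label irradiated stood for irradiated skin, which the treatment protocol called the control, and the label normal for skin with no treatment. The files went against the organism, since all 32285 gene features were mouse Ensembl identifiers, chronic, acute, irradiated and normal came with 4 hashtags against mouse proteins, and the title of the series spoke of an anti-JUN therapeutic and of adhesions after surgery. The names pretreatment, continuous, chronic, acute, irradiated and normal are thus used as labels only, and no difference between them is ascribed to radiation or to the patch. Each label was 1 library, and the number and age of the animals behind it were not given in the sources used here.

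Endothelial cells line all blood vessels. In skin, arterial cells meet fast flow and signal through Notch, capillary cells exchange water, lipids and gases with the tissue, and venous cells after the capillaries are the usual entry point for leukocytes. When vessels grow, tip cells lead the sprout under VEGF signals and secrete factors such as apelin, endocan and angiopoietins, while Notch signals hold their neighbours back.

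The 25 endothelial core genes outside the rule, among them Cldn5, Emcn, Esam and Tie1, made up 4861 CPM in pretreatment, 8236 CPM in continuous, 7017 CPM in chronic, 7558 CPM in acute, 8094 CPM in irradiated and 7319 CPM in normal of the members' RNA, where CPM are counts scaled to 1000000 gene UMIs of the summed cells. In non-endothelial kept cells of the same libraries the same genes summed to 199 to 548 CPM. The endothelial part of the name thus held in all 6 libraries, with pretreatment the lowest by summed UMIs. Per cell it was not: the median member held 0.935% of its UMIs in core genes in pretreatment, against 0.836% in acute and 1.04% in continuous. The 14 capillary genes, such as Rgcc, Gpihbp1 and Cd36, came to 13218 CPM in pretreatment, 17422 CPM in continuous, 10515 CPM in chronic, 9991 CPM in acute, 9384 CPM in irradiated and 8734 CPM in normal in members, against 339 to 789 CPM in non-endothelial cells. The 16 arterial genes, such as Gja4, Sema3g and Sox17, came to 1349.8 CPM in pretreatment, 2491 CPM in continuous, 1933 CPM in chronic, 1648 CPM in acute, 1767 CPM in irradiated and 1934 CPM in normal in members, against 255 to 599.6 CPM in non-endothelial cells. Both signatures were thus present in the members of every library. The capillary list was not particular to them. In venous endothelial cells, described below, it came to 8228 CPM in pretreatment, 13320.5 CPM in continuous and 11870 CPM in chronic. It came to 7792 CPM in acute, 7394 CPM in irradiated and 8689 CPM in normal. In chronic venous cells thus stood above members, and in normal about level. The arterial list came to 817 to 1271 CPM in venous cells, below members in every library. By summed UMIs, to which deep cells add most, capillary RNA was highest in continuous. Summed arterial RNA was highest in continuous and lowest in pretreatment. Per cell, pretreatment was highest for both. Its median member held 0.195% of its UMIs in arterial genes, against 0.0987 to 0.175% in the other libraries. For capillary genes it was 2.24%, against 0.549 to 1.61%.

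RNA of other cell types was present as well. Fibroblast genes (Col1a1, Col1a2, Col3a1, Dcn, Lum, Pdgfra, Dpt) summed to 10381 CPM in pretreatment, 7298 CPM in continuous, 5483 CPM in chronic, 10889 CPM in acute, 12587 CPM in irradiated and 14485 CPM in normal. Neutrophil genes summed to 31.7 CPM in pretreatment, 3110.0 CPM in continuous, 7531 CPM in chronic, 4621 CPM in acute, 4028 CPM in irradiated and 3102 CPM in normal, and keratinocyte genes to 1355 CPM in pretreatment, 208 CPM in continuous, 3499 CPM in chronic, 74.1 CPM in acute, 254 CPM in irradiated and 29.4 CPM in normal. Fibroblast RNA was high in all 6 libraries, neutrophil RNA in all but pretreatment, and keratinocyte RNA mainly in chronic and pretreatment. Erythroid genes summed to 38.6 CPM in pretreatment, 4351 CPM in continuous, 286 CPM in chronic, 737 CPM in acute, 1727 CPM in irradiated and 317 CPM in normal. Pericyte or smooth muscle genes summed to 1309 CPM in pretreatment, 1276 CPM in continuous, 230.0 CPM in chronic, 602 CPM in acute, 230.1 CPM in irradiated and 597 CPM in normal, with 2 of the 9 genes at 0 in irradiated. Macrophage or monocyte genes lay at 22.1 to 802 CPM, T cell genes at 1.38 to 44.0 CPM and Schwann cell genes at 1.70 to 33.8 CPM, and 4 of 5 T cell genes were at 0 in pretreatment.

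Much of the fibroblast RNA, and outside pretreatment much of the neutrophil and erythroid RNA, sat in a minority of the cells. Over 1% of the UMIs came from fibroblast genes in 118 of 1174 members (10.1%), from neutrophil genes in 85 (7.24%), from erythroid genes in 17, from pericyte or smooth muscle genes in 15 and from keratinocyte genes in 7, and 57 members held fewer than 2 endothelial core UMIs. In all, 257 members (21.9%) bore at least 1 of these marks, and they held 20.5 to 34.6% of the members' UMIs in a library. Without them the fibroblast sum came to 284 to 835 CPM and the core sum stood at 5689 to 10425 CPM. Outside pretreatment the neutrophil sum came to 417 to 1177 CPM and the erythroid sum to 23.4 to 165 CPM. The pericyte or smooth muscle sum fell little or not at all, to 220 to 1319 CPM. Keratinocyte genes came to 18.2 CPM in chronic but stayed at 1418 CPM in pretreatment. Macrophage or monocyte genes came to 116 CPM in continuous but stayed at 807 CPM in acute. Values without the marked cells, a setting chosen after seeing the data, stand beside a ratio between labels where they move it by over 1.5 times, and beside a gene list where they move its median log2 ratio by at least 0.3 or a count by over 1.5 times and more than 1 gene. The doublet caller Scrublet marked 1 member in pretreatment, 6 in continuous, 7 in chronic, 38 in acute, 27 in irradiated and 24 in normal, and what the marked cells are was not tested.

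The threshold of the endothelial gate ran through cells with little endothelial RNA. Members just inside it, with a gate sum of 3, had core levels of 599 to 2931 CPM and fibroblast levels of 12655 to 50922 CPM over the 6 libraries, and cells just outside, with a gate sum of 2, had 552 to 1322 and 16151 to 43724 CPM. All 4 gate genes were detected in 34.4 to 53.6% of members, and a single one in 5.10 to 16.5%. Depth differed between libraries: the median member held 6843 in pretreatment, 3309 in continuous, 3187 in chronic, 2227 in acute, 2100 in irradiated and 2771 in normal, in UMIs, and the summed UMIs of members ran from 587045 in chronic to 1449134 in pretreatment. No member barcode occurred in more than 1 library, and between 2 and 143 kept barcodes were shared by any pair of libraries, at most 0.801% of the smaller one.

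**Figure D1:**
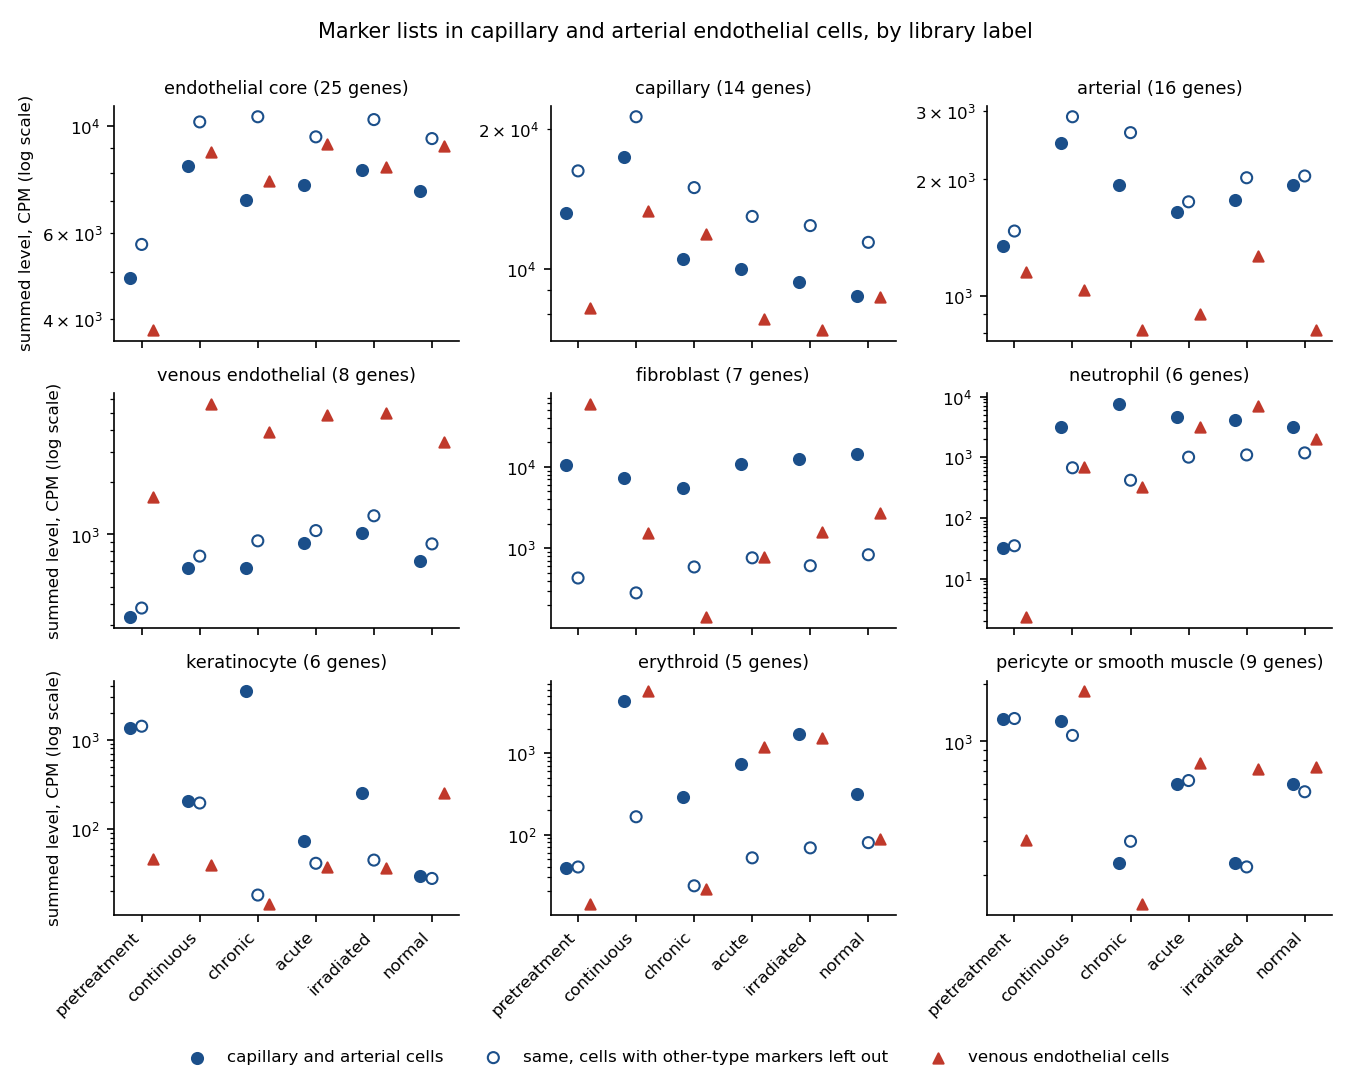
Summed level of 9 marker lists (CPM, log scale) in capillary and arterial cells (filled circles), the same without cells that carry other-type markers (open circles) and venous endothelial cells (triangles), by library label. The endothelial core level of capillary and arterial cells lies between 4861 and 8236 CPM, while the fibroblast level of 14485 CPM in normal members drops to 835 CPM without the marked cells.

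Capillary and arterial cells made up 6.47% (5.28 to 7.84) in pretreatment, 1.76% (1.5 to 2.06) in continuous, 1.15% (0.946 to 1.39) in chronic, 1.29% (1.15 to 1.44) in acute, 0.827% (0.712 to 0.955) in irradiated and 1.81% (1.62 to 2.01) in normal of kept cells, in parentheses with exact Clopper-Pearson 95% intervals that cover counting error only. Pretreatment, the library with the fewest and deepest cells, stood far above the rest, and irradiated was lowest. Within the endothelial gate their share was 74.0% in pretreatment, 73.7% in continuous, 69.7% in chronic, 79.7% in acute, 69.1% in irradiated and 76.6% in normal, so the balance with venous and lymphatic cells differed far less than the share of all cells. A venous or lymphatic call needs at least 2 UMIs, so this balance depends on depth. Thinned to 1000 UMIs before the gate, the share was 93.3% in pretreatment, 85.2% in continuous and 80.2% in chronic. It was then 88.1% in acute, 80.4% in irradiated and 89.1% in normal. Cells were released with collagenase, so these are shares of released and captured cells, not of tissue.

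Many members held both arterial and capillary RNA. Cells with at least 2 UMIs of the capillary list made up 84.5% in pretreatment, 95.5% in continuous, 88.7% in chronic, 88.1% in acute, 90.2% in irradiated and 90% in normal of members, and cells with at least 2 UMIs of the arterial list 89.7% in pretreatment, 79.0% in continuous, 69.8% in chronic, 62.1% in acute, 62.3% in irradiated and 71.3% in normal. Both marks together were found in 58.8 to 78.4% of members over the 6 libraries, and none of the arterial, capillary and tip marks in 0 to 2.89%, where the 0 of 157 cells in continuous allow a share of up to 2.32%. These shares rise with depth, so they were also taken after each cell of at least 1000 UMIs was thinned to 1000 UMIs, which left out 4 members in pretreatment, 12 in continuous, 9 in chronic, 45 in acute, 21 in irradiated and 42 in normal. The capillary mark then held 73.1% in pretreatment, 86.2% in continuous, 72.2% in chronic, 79.7% in acute, 80.9% in irradiated and 77.3% in normal, and the arterial mark 53.8% in pretreatment, 48.3% in continuous, 43.3% in chronic, 38.7% in acute, 37.7% in irradiated and 45.7% in normal. Cells with at least 2 UMIs of the tip cell list made up 74.2% in pretreatment, 70.7% in continuous, 77.4% in chronic, 72.0% in acute, 69.9% in irradiated and 69.4% in normal before thinning. After thinning the tip mark held 10.8% in pretreatment, 26.9% in continuous, 32.0% in chronic, 46.6% in acute, 51.9% in irradiated and 41.4% in normal, with exact 95% intervals of 5.28 to 18.9% in pretreatment and 43.9 to 59.8% in irradiated. Both the arterial and the capillary mark were then found in 32.7 to 48.4% of members, and none of the 3 marks in 6.90 to 20.4%. In non-endothelial cells of the same depth the capillary mark held 4.65 to 9.99% and the arterial mark 2.97 to 9.22% over the 6 libraries, far below the members (before thinning 17.8 to 38.7% and 10.3 to 39.5%, at median depths of 1377 to 9842 UMIs in non-endothelial cells and 2100 to 6843 UMIs in members). The tip mark, whose list holds genes that other cells also use, held after thinning 13.1% in pretreatment, 32.8% in continuous, 25.8% in chronic, 32.9% in acute, 37.6% in irradiated and 29.0% in normal of non-endothelial cells. The members' thinned tip share was thus below that background in pretreatment and continuous, where it is read as background, and above it in acute, irradiated and normal. In chronic it was higher too, but its exact 95% interval of 22.9 to 42.2% took in the background. Before thinning the tip mark held 47.8 to 70.8% of non-endothelial cells, and in continuous the members' unthinned share was no higher.

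Some genes outside the arterial list also stood higher in members with the arterial mark. The choice took only genes higher in arterial-marked cells in 6 of 6 libraries, so that direction is no finding. Among these, the 10 with the largest median log2 difference were Rbp7, Serpina3n, Lox, Ube2c, Cpxm1, Gpx3, Cxcl14, Cx3cl1, Pclaf and Cthrc1. Rbp7 (ENSMUSG00000028996), a retinol-binding protein, stood at 94.1 CPM in pretreatment, 387 CPM in continuous, 141 CPM in chronic, 184 CPM in acute, 131 CPM in irradiated and 64.0 CPM in normal in arterial-marked members, against 0 CPM in pretreatment, 14.2 CPM in continuous, 0 CPM in chronic, 25.5 CPM in acute, 24.1 CPM in irradiated and 52.7 CPM in normal in the other members. Cx3cl1 (ENSMUSG00000031778), the membrane-bound chemokine fractalkine, averaged 37.9 CPM in arterial-marked and 5.73 CPM in other members. Lox, Serpina3n, Cpxm1, Cthrc1 and Cxcl14 are also known from fibroblasts, and Ube2c and Pclaf from dividing cells; the arterial mark is commoner in deeper cells, and the part of fibroblast RNA or depth in these differences was not tested.

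Capillary and arterial cells were set against venous endothelial cells, the cells of the same gate with at least 2 UMIs of Ackr1 and Selp, of which the 6 libraries held 21, 40, 41, 69, 75 and 76 in the order pretreatment, continuous, chronic, acute, irradiated and normal. The gate divided the cells by venous RNA, so genes that go with Ackr1 and Selp had to differ, and the values are a description only. Venous cells were also deeper than members in every library, with medians of 2474 to 18809 UMIs against 2100 to 6843 UMIs. Shallow venous cells can thus count as members. The rule for naming genes here began with an adjusted p under 0.05 in the edgeR fit of the next paragraph. It then took the largest differences in the same direction in 6 of 6 libraries, at 20 CPM or more on average in the higher gate. Aqp7 (ENSMUSG00000028427), a glycerol channel, stood at 38.6 CPM in pretreatment, 41.3 CPM in continuous, 47.7 CPM in chronic, 41.7 CPM in acute, 38.6 CPM in irradiated and 23.4 CPM in normal in members, against 2.31 CPM in pretreatment, 0 CPM in continuous, 0 CPM in chronic, 0 CPM in acute, 0 CPM in irradiated and 2.40 CPM in normal in venous cells. Lpl (ENSMUSG00000015568), lipoprotein lipase, which frees fatty acids at the capillary wall, averaged 322 ± 191 CPM in capillary and arterial cells and 57.6 ± 74.4 CPM in venous cells (SD, n = 6 libraries), and Clic5 (ENSMUSG00000023959), a protein of the chloride channel family, averaged 68.3 ± 47.4 CPM in capillary and arterial cells and 6.23 ± 6.64 CPM in venous cells (SD, n = 6). Each of the 3 genes was higher in capillary and arterial cells in 6 of 6 libraries, as the rule for naming genes required. Sele (ENSMUSG00000026582), E-selectin, which slows rolling leukocytes, averaged 12.4 ± 9.42 CPM in capillary and arterial cells and 253 ± 92.1 CPM in venous cells (SD, n = 6), a log2 difference of -4.43. Slco2a1 (ENSMUSG00000032548), a prostaglandin transporter, averaged 67.4 ± 25.7 CPM in capillary and arterial cells and 314 ± 101 CPM in venous cells, and Lrg1 (ENSMUSG00000037095), a secreted glycoprotein, averaged 215 ± 70.2 CPM in capillary and arterial cells and 796 ± 286 CPM in venous cells (SD, n = 6 each). These 3 genes were lower in capillary and arterial cells in 6 of 6 libraries, which the rule required too. By the rule for naming genes, the further ones with large differences were Lrrc15, Timp4, Tnc, Hp, Scd1, Serpinb2 and Rbp7 on the capillary and arterial side, and Ehd3, Cmah, Csf3, Mctp1, Ctnnal1, Ptgs1 and Ppp1r14a on the venous side. Without the marked cells the log2 difference of Tnc was 1.41, against 3.87 with them, and that of Hp 1.31, against 3.71; Lrrc15, Scd1, Serpinb2 and Cmah no longer passed the filter on low counts.

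Across all 6354 genes fitted with edgeR's quasi-likelihood test on UMIs summed per library and gate, with the library as a block, 71 stood higher (1.12% of those fitted) and 104 lower (1.64%) at a Benjamini-Hochberg adjusted p under 0.05, and nothing is read from these counts because the same contrast chose the cells. Of the 14 capillary genes 7 were called higher and 3 lower, of 12 arterial genes 5 higher and 0 lower, of 10 genes of fatty acid handling 5 higher and 0 lower, and of 22 adhesion and NF-kB genes 0 higher and 6 lower. Of 13 tip cell genes 3 were higher and 0 lower, which with the marked cells left out became 8 higher and 0 lower. The list counts carry the same limit as the total counts. Fibroblast genes summed to 58946 CPM in the venous cells of pretreatment and to 143 to 2702 CPM in those of the other 5 libraries, and without pretreatment 317 genes were called higher and 229 lower. Without continuous it was 30 and 41, without chronic 41 and 58, without acute 29 and 41, without irradiated 35 and 48, and without normal 36 and 52.

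**Figure D2:**
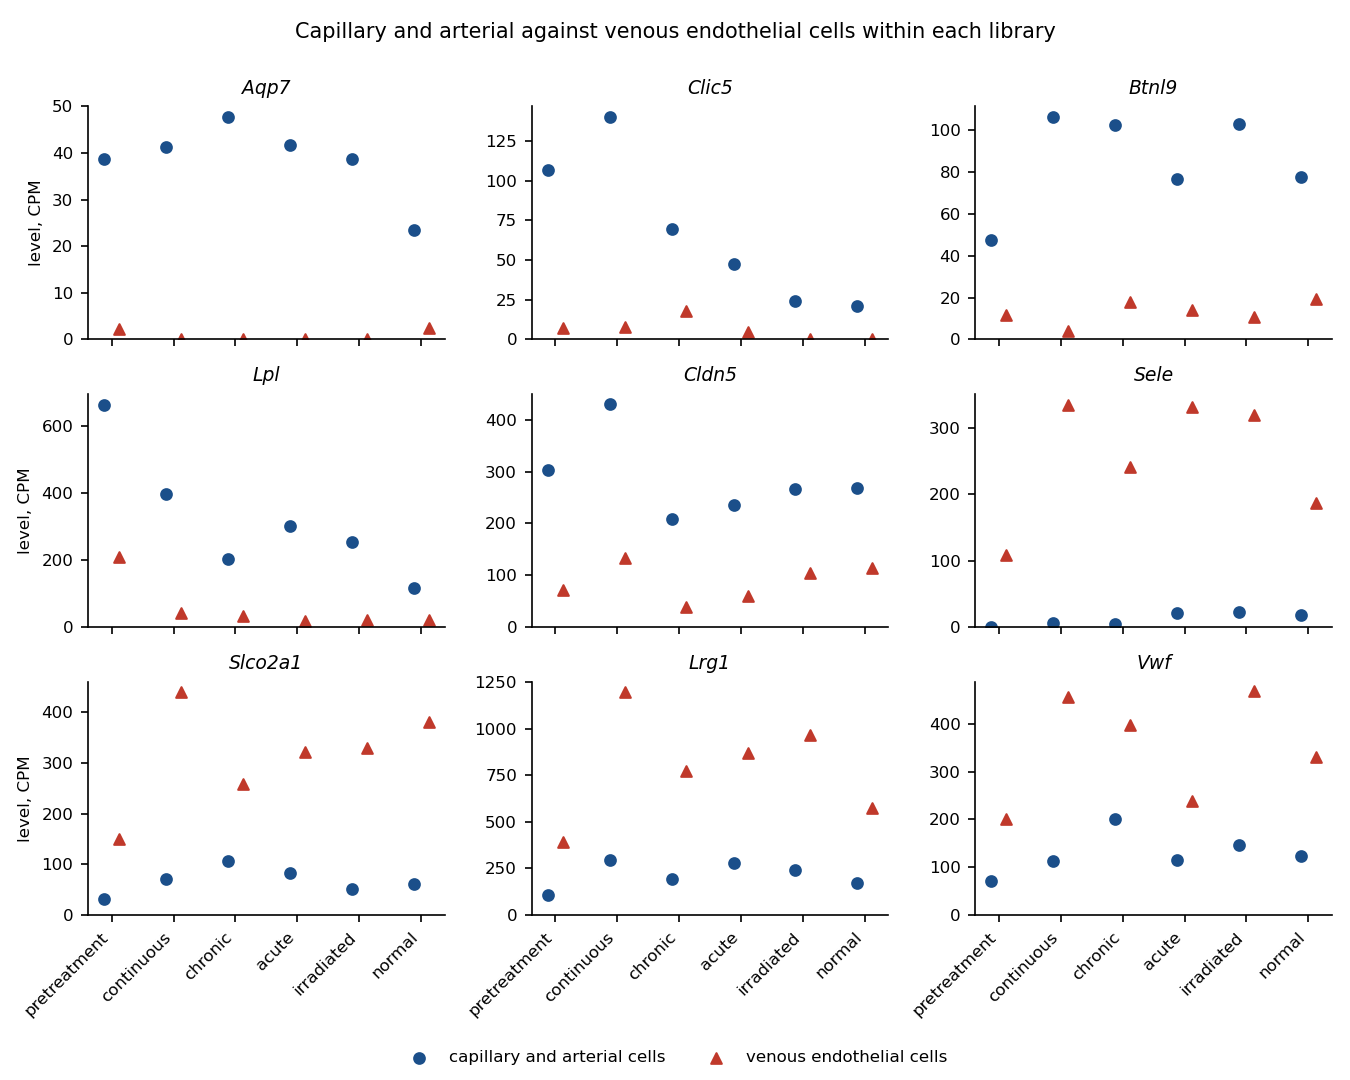
Levels of 9 genes (CPM, linear scale) in capillary and arterial cells (circles) and venous endothelial cells (triangles) of each library. Aqp7, Clic5, Btnl9, Lpl and Cldn5 stand higher in capillary and arterial cells in every library, and Sele, Slco2a1, Lrg1 and Vwf stand lower. The rule for naming genes required this of Aqp7, Clic5, Lpl, Sele, Slco2a1 and Lrg1. Btnl9, Cldn5 and Vwf were added after their values were seen.

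Between labels, the UMIs of all members of a library were summed, and a ratio of CPM was taken with an exact 95% interval for counts. With 1 library a label no test was possible: the intervals cover counting error only, not the spread between animals, and differences are described, not called changes. A gene with at least 20 UMIs over both sums counts as past 2-fold when its ratio is at least 2 or at most 0.5 and its interval leaves out 1. Pretreatment against irradiated gave 1260 genes past 2-fold higher (13.9% of 9076 compared) and 1343 lower (14.8%). Continuous against irradiated gave 497 genes past 2-fold higher (6.47% of 7680 compared) and 671 lower (8.74%), and chronic against irradiated gave 338 genes past 2-fold higher (4.73% of 7145 compared) and 494 lower (6.91%). Acute against irradiated gave 128 genes past 2-fold higher (1.65% of 7747 compared) and 124 lower (1.6%), and irradiated against normal gave 235 genes past 2-fold higher (2.75% of 8552 compared) and 166 lower (1.94%). The members of pretreatment stood furthest from those of irradiated, and those of acute closest. The 4 comparisons with irradiated share that library, so a level particular to it appears in all 4, and their values are given side by side only. The median log2 ratio over all genes compared was -0.03, -0.09, -0.11 and 0.00 for pretreatment, continuous, chronic and acute against irradiated, and 0.02 for irradiated against normal; list medians below are read against these. Summed over cells, fewer cells that carry an RNA and less of it per cell cannot be told apart. Several genes named below are not particular to these cells. In irradiated, Klf6, Dusp1, Cdkn1a and Mdm2 were found in 33.9 to 79.8% of members and 39.1 to 80.2% of non-endothelial cells.

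Many of the largest ratios rested on few cells. In chronic, 26.3% of the 338 genes past 2-fold higher than irradiated had over 50% of their UMIs in 1 member, and in pretreatment 19.1% of 1260. With the highest cell of each gene left out in both libraries, a setting chosen after seeing the data, 140 of the 338 and 739 of the 1260 stayed past 2-fold higher, and with the marked cells left out 128 and 933. Of the genes past 2-fold lower than irradiated, 1229 of 1343 in pretreatment, 558 of 671 in continuous and 412 of 494 in chronic stayed so without the highest cell. Acute went the other way, with 111 of 128 genes higher and 71 of 124 lower that stayed past 2-fold, and over 50% of the UMIs in 1 member for 4.69% of those higher and 16.9% of those lower.

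**Figure D3:**
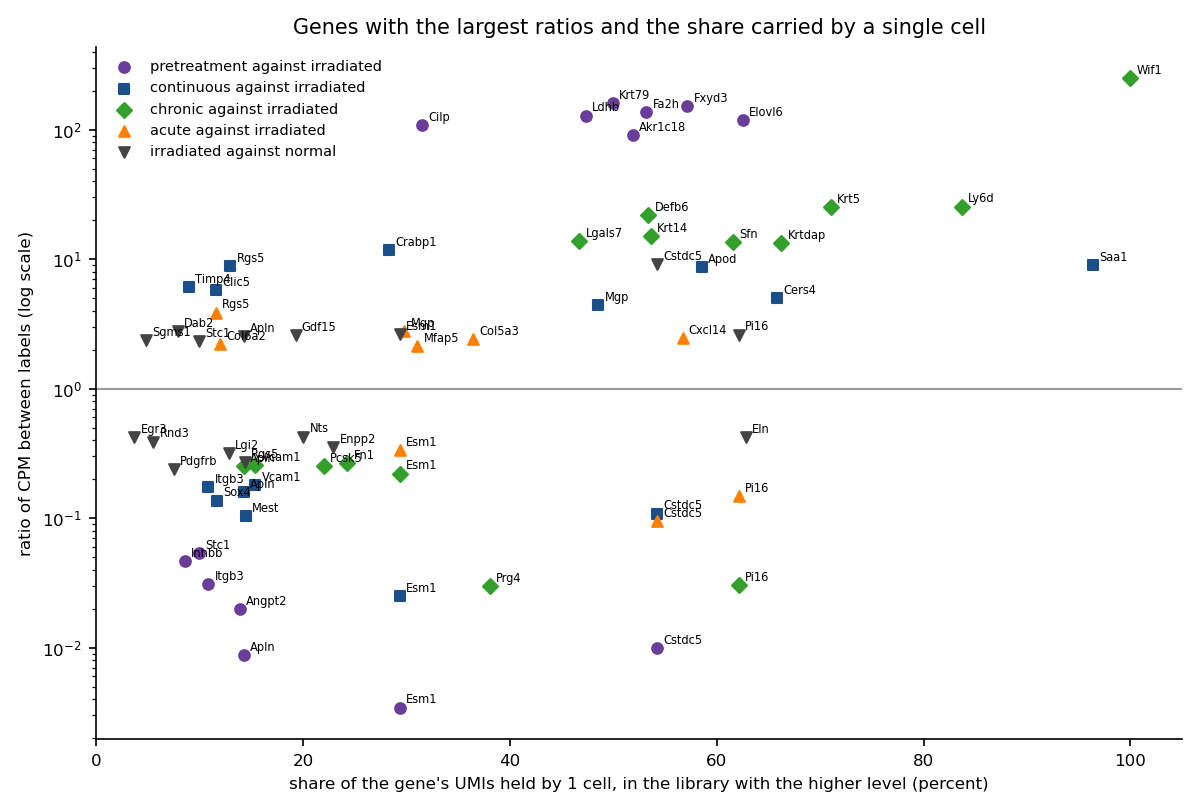
Each point is 1 gene with 1 of the largest ratios in a comparison: the share of its UMIs in the single highest member (percent, horizontal, in the library with the higher level) against its ratio of CPM (vertical, log scale). Wif1 in chronic lies at 100%, Saa1 in continuous at 96.4%, while Stc1 and Inhbb in irradiated, the low points at the left, lie near or below 10%; the ratio of Apln in pretreatment, where it had 0 UMIs, is set against 3 counts.

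The 19 gene lists are described by role, and some genes stand on more than 1 list. After thinning to 1000 UMIs, which keeps fewer genes, the median over all genes in pretreatment against irradiated was -0.20. Genes of sprouting vessels showed the widest spread between labels. Against irradiated, the tip cell and sprouting list had 0 of 14 genes past 2-fold higher and 12 lower in pretreatment (median log2 ratio -2.88, and -2.81 after thinning) and 0 of 14 higher and 8 lower in continuous (median -1.09). The tip cell and sprouting counts in chronic were 0 of 14 higher and 5 lower (median -0.74), and in acute 0 of 15 and 2 (median -0.23). Of 14 tip cell and sprouting genes, 4 stood higher and 0 lower in irradiated against normal (median 0.40). With marked cells left out the counts lower were 12, 9, 5 and 2 in the order pretreatment, continuous, chronic and acute against irradiated, and 4 of 14 stood higher in irradiated against normal. The medians were then -3.31, -1.43, -0.75 and -0.46 in that order, and 0.11 in irradiated against normal. After thinning they were -1.10 in continuous, -1.02 in chronic and 0.02 in acute, and 0.19 in irradiated against normal. No list gene of this group stood past 2-fold higher in any of the 4 patch labels in the main values.

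Esm1 (ENSMUSG00000042379), the secreted proteoglycan endocan of tip cells, stood at 1.38 CPM in pretreatment, 10 CPM in continuous, 88.6 CPM in chronic, 135 CPM in acute, 401 CPM in irradiated and 153 CPM in normal. Irradiated was highest, normal and acute lay near each other, and pretreatment was close to nothing, with 2 UMIs in all its members. It was 290.3-fold lower (79.5 to 2410.5) in pretreatment, 40.1-fold lower (20.0 to 93.8) in continuous, 4.52-fold lower (3.34 to 6.22) in chronic and 2.96-fold lower (2.37 to 3.72) in acute against irradiated, and 2.63-fold higher (2.17 to 3.18) in irradiated against normal. In irradiated its 249 UMIs lay in 34 of 183 members (18.6%, median 2100 UMIs), against 0.275% of non-endothelial cells (median 1633 UMIs), and 1 cell held 29.3% of them.

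Apln (ENSMUSG00000037010), the apelin peptide that acts on the receptor Aplnr, stood at 0 CPM in pretreatment, 37.5 CPM in continuous, 59.6 CPM in chronic, 132 CPM in acute, 237 CPM in irradiated and 92.9 CPM in normal. In pretreatment no Apln UMI was found, and with 3 counts set in its place Apln was 114-fold lower, a value that is no bound. It was 6.31-fold lower (4.24 to 9.68, and 9.64-fold lower without the marked cells) in continuous, 3.97-fold lower (2.73 to 5.91) in chronic and 1.79-fold lower (1.39 to 2.31) in acute, and 2.55-fold higher (1.99 to 3.26) in irradiated against normal. Angpt2 (ENSMUSG00000031465), angiopoietin released by endothelial cells that loosens vessels, stood at 6.90 CPM in pretreatment, 88.8 CPM in continuous, 128 CPM in chronic, 239.6 CPM in acute, 348 CPM in irradiated and 153 CPM in normal. Against irradiated it was 50.4-fold lower (26.9 to 107, and 108-fold lower without the highest cell) in pretreatment, 3.91-fold lower (2.98 to 5.19) in continuous and 2.72-fold lower (2.08 to 3.59) in chronic, and 2.27-fold higher (1.86 to 2.76) in irradiated against normal. Cxcr4 (ENSMUSG00000045382), the receptor of Cxcl12, stood at 5.52 CPM in pretreatment, 23.8 CPM in continuous, 112 CPM in chronic, 255 CPM in acute, 198 CPM in irradiated and 292 CPM in normal, so normal was highest, with acute next and irradiated below both. All 4 genes kept the order pretreatment, continuous, chronic, acute from low to high, and Esm1, Apln and Angpt2 stood highest in irradiated. Median member depth ran the opposite way, at 6843, 3309, 3187, 2227 and 2100 UMIs from pretreatment to irradiated. Pretreatment and continuous are also the libraries without hashtags. Label, depth and library kind cannot be told apart here. Cxcr4 was found in 6.19% of members and 31.8% of non-endothelial cells in pretreatment, and in 28.4% and 32.1% in irradiated. In normal the members were above, at 30.3% against 24.7%.

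**Figure D4:**
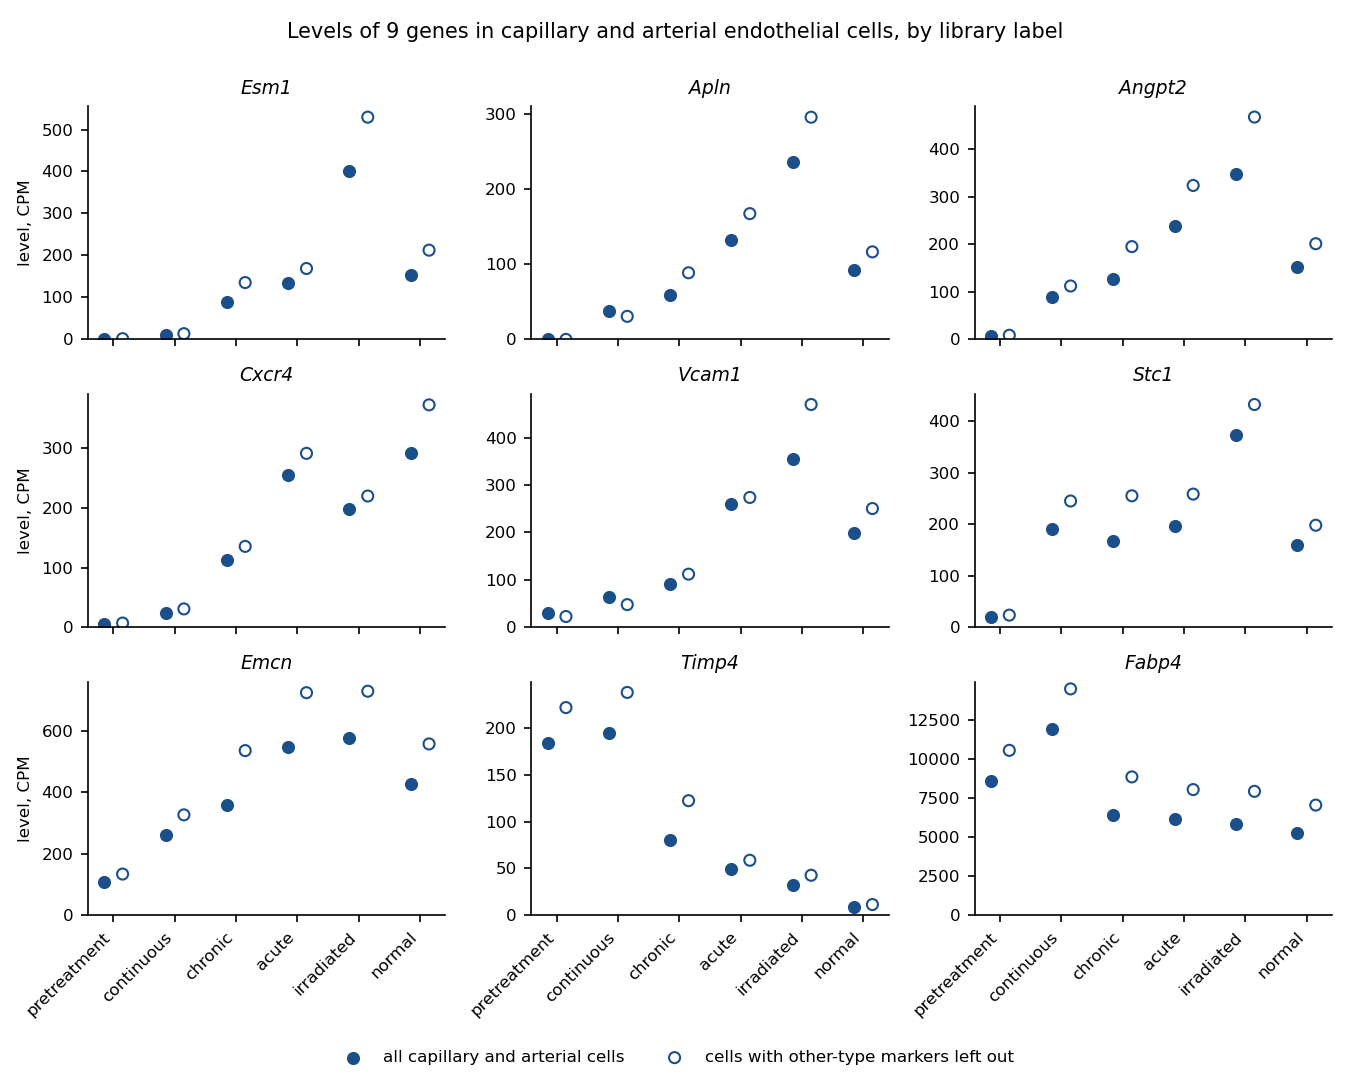
Levels of 9 genes (CPM, linear scale) in capillary and arterial cells by library label, with all cells (filled) and with cells that carry other-type markers left out (open). Esm1, Apln, Angpt2, Vcam1, Stc1 and Emcn are lowest in pretreatment and highest in irradiated, Cxcr4 is highest in normal, and Timp4 and Fabp4 are highest in continuous; Fabp4, a fatty acid carrier, was added after its values were seen.

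Signalling genes had fewer ratios past 2-fold. Against irradiated, the VEGF, Notch and BMP list had 2 of 19 genes past 2-fold higher and 4 lower in pretreatment (median log2 ratio -0.62, and -0.52 after thinning) and 3 of 19 higher and 2 lower in continuous (median -0.03). The VEGF, Notch and BMP counts in chronic were 1 of 19 higher and 0 lower (median 0.05), and in acute 0 of 19 and 0 (median 0.05). Of 19 VEGF, Notch and BMP genes, 2 stood higher and 0 lower in irradiated against normal (median 0.17). Dll4 (ENSMUSG00000027314), the Notch ligand of tip and arterial cells, stood at 20.7 CPM in pretreatment, 109 CPM in continuous, 88.6 CPM in chronic, 88.0 CPM in acute, 137 CPM in irradiated and 119 CPM in normal. It was 6.61-fold lower (4.31 to 10.4) in pretreatment against irradiated. Flt1 (ENSMUSG00000029648), a VEGF receptor that also acts as a decoy, stood at 627 CPM in pretreatment, 1077 CPM in continuous, 758 CPM in chronic, 817 CPM in acute, 966 CPM in irradiated and 621 CPM in normal. It was 1.56-fold higher (1.40 to 1.73) in irradiated against normal, short of 2-fold. Id3 (ENSMUSG00000007872), a target of BMP signals, went the other way, at 404 CPM in pretreatment, 509 CPM in continuous, 387 CPM in chronic, 249 CPM in acute, 180.2 CPM in irradiated and 234 CPM in normal, and was 2.24-fold higher (1.83 to 2.77) in pretreatment, 2.82-fold higher (2.29 to 3.51) in continuous and 2.15-fold higher (1.70 to 2.72) in chronic against irradiated. Hey1 (ENSMUSG00000040289), a Notch target, stood at 15.9 CPM in pretreatment, 56.3 CPM in continuous, 68.1 CPM in chronic, 78.7 CPM in acute, 119 CPM in irradiated and 58.9 CPM in normal. Its ratio of irradiated to normal, 2.02-fold, turned to a log2 ratio of -0.22 after thinning to 1000 UMIs.

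General endothelial genes had the most ratios past 2-fold in pretreatment. Against irradiated, the endothelial core list had 0 of 25 genes past 2-fold higher and 10 lower in pretreatment (median log2 ratio -0.67, and 0.08 after thinning) and 2 of 25 higher and 2 lower in continuous (median 0.05). The endothelial core counts in chronic were 0 of 25 higher and 1 lower (median -0.15), and in acute 0 of 25 and 0 (median -0.08). Of 25 endothelial core genes, 0 stood higher and 0 lower in irradiated against normal (median -0.01). Emcn (ENSMUSG00000054690), the sialomucin endomucin of capillary and venous surfaces, stood at 108 CPM in pretreatment, 260.1 CPM in continuous, 358 CPM in chronic, 547 CPM in acute, 578 CPM in irradiated and 429 CPM in normal. It was 5.37-fold lower (4.43 to 6.52) in pretreatment and 2.22-fold lower (1.87 to 2.65) in continuous against irradiated. Mcam (ENSMUSG00000032135), an adhesion molecule at endothelial junctions, stood at 72.5 CPM in pretreatment, 221 CPM in continuous, 228 CPM in chronic, 444 CPM in acute, 409 CPM in irradiated and 333 CPM in normal. It was 5.64-fold lower (4.48 to 7.15) in pretreatment. Both were lowest in pretreatment, and in continuous they stood below irradiated. Ramp2 (ENSMUSG00000001240), which with Calcrl forms the adrenomedullin receptor, stood at 229.8 CPM in pretreatment, 410.2 CPM in continuous, 223 CPM in chronic, 243 CPM in acute, 187 CPM in irradiated and 236 CPM in normal. It was 2.20-fold higher (1.77 to 2.74) in continuous. Jam2 (ENSMUSG00000053062), a junction protein, stood at 187 CPM in pretreatment, 220.1 CPM in continuous, 148 CPM in chronic, 112 CPM in acute, 96.6 CPM in irradiated and 119 CPM in normal. It was 2.28-fold higher (1.69 to 3.11) in continuous.

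Against irradiated, the arterial list had 0 of 14 genes past 2-fold higher and 6 lower in pretreatment (median log2 ratio -1.07, and -0.82 after thinning) and 5 of 15 higher and 1 lower in continuous (median 0.16). The arterial counts in chronic were 2 of 14 higher and 0 lower (median 0.15), and in acute 0 of 14 and 0 (median -0.14). Of 14 arterial genes, 1 stood higher and 1 lower in irradiated against normal (median -0.09). The arterial list without the marked cells had 4 of 13 higher and 0 lower in chronic (median 0.30). Gja4 (ENSMUSG00000050234) and Gja5 (ENSMUSG00000057123), connexins of arterial gap junctions, did not go together. Gja4 stood at 28.3 CPM in pretreatment, 73.8 CPM in continuous, 69.8 CPM in chronic, 31.3 CPM in acute, 22.5 CPM in irradiated and 52.9 CPM in normal. It was 3.28-fold higher (1.81 to 6.35) in continuous and 3.10-fold higher (1.66 to 6.16) in chronic against irradiated, and 2.35-fold lower (1.31 to 4.51) in irradiated against normal. Gja5 stood at 6.21 CPM in pretreatment, 91.3 CPM in continuous, 97.1 CPM in chronic, 81.0 CPM in acute, 83.7 CPM in irradiated and 71.7 CPM in normal, and 1 cell held 50.7% of the UMIs in continuous (45 CPM without it). It was 13.5-fold lower (6.58 to 31.1) in pretreatment, where it had 9 UMIs. Sema3g (ENSMUSG00000021904), a guidance factor of arterial cells, stood at 70.4 CPM in pretreatment, 236 CPM in continuous, 138 CPM in chronic, 154 CPM in acute, 155 CPM in irradiated and 108 CPM in normal. It was 2.19-fold lower (1.64 to 2.93) in pretreatment. Stmn2 (ENSMUSG00000027500) stood at 40.7 CPM in pretreatment, 164 CPM in continuous, 109 CPM in chronic, 34.7 CPM in acute, 38.6 CPM in irradiated and 43.0 CPM in normal. It was 4.24-fold higher (2.73 to 6.86) in continuous and 2.82-fold higher (1.74 to 4.72) in chronic. The transcription factor Sox17 (ENSMUSG00000025902) stood at 97.3 CPM in pretreatment, 140.1 CPM in continuous, 135 CPM in chronic, 109 CPM in acute, 126 CPM in irradiated and 147 CPM in normal, with the interval of each comparison reaching across 1.

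By their medians before thinning, capillary genes stood a little above irradiated in all 4 patch labels. Against irradiated, the capillary list had 3 of 14 genes past 2-fold higher and 2 lower in pretreatment (median log2 ratio 0.21, and 0.96 after thinning) and 5 of 14 higher and 0 lower in continuous (median 0.45). The capillary counts in chronic were 3 of 14 higher and 1 lower (median 0.19), and in acute 1 of 14 and 0 (median 0.12, and -0.04 after thinning). Of 14 capillary genes, 1 stood higher and 1 lower in irradiated against normal (median 0.20). Timp4 (ENSMUSG00000030317), an inhibitor of matrix proteases, stood at 184 CPM in pretreatment, 195 CPM in continuous, 80.1 CPM in chronic, 49.8 CPM in acute, 32.2 CPM in irradiated and 8.31 CPM in normal. It was 5.73-fold higher (3.63 to 9.53) in pretreatment and 6.06-fold higher (3.79 to 10.2) in continuous against irradiated. Tcf15 (ENSMUSG00000068079), a transcription factor that with Meox2 drives fatty acid uptake in heart endothelium of mice, stood at 137 CPM in pretreatment, 97.5 CPM in continuous, 68.1 CPM in chronic, 24.3 CPM in acute, 8.05 CPM in irradiated and 34.0 CPM in normal. It was 17.0-fold higher (7.16 to 52.9) in pretreatment and 12.1-fold higher (4.98 to 38.4, and 18.4-fold higher without the highest cell) in continuous. Both were highest in pretreatment and continuous and lowest in irradiated or normal. Rgcc (ENSMUSG00000022018), a cell cycle regulator used as a capillary marker, stood at 472 CPM in pretreatment, 389 CPM in continuous, 315 CPM in chronic, 299.7 CPM in acute, 270.3 CPM in irradiated and 338 CPM in normal. Plvap (ENSMUSG00000034845), which forms the diaphragms of fenestrae and caveolae, stood at 384 CPM in pretreatment, 590.2 CPM in continuous, 714 CPM in chronic, 595 CPM in acute, 640.4 CPM in irradiated and 757 CPM in normal. It was 1.67-fold lower (1.46 to 1.90) in pretreatment. Aqp1 (ENSMUSG00000004655), a water channel, was 2.08-fold higher (1.78 to 2.44) in chronic against irradiated, at 835 CPM in chronic, against 401 CPM in irradiated.

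Lipid handling went with the capillary genes, and 6 genes stand on both lists. Against irradiated, the fatty acid list had 5 of 12 genes past 2-fold higher and 1 lower in pretreatment (median log2 ratio 0.48, and 1.09 after thinning) and 5 of 12 higher and 0 lower in continuous (median 0.81). The fatty acid counts in chronic were 2 of 11 higher and 1 lower (median 0.13), and in acute 1 of 11 and 0 (median 0.07, and -0.03 after thinning). Of 11 fatty acid genes, 1 stood higher and 1 lower in irradiated against normal (median 0.32). The fatty acid list without the marked cells had 3 of 10 higher and 0 lower in continuous (median 0.68). Gpihbp1 (ENSMUSG00000022579), which carries lipoprotein lipase to the capillary lumen, stood at 524 CPM in pretreatment, 843 CPM in continuous, 519.6 CPM in chronic, 422 CPM in acute, 394 CPM in irradiated and 375 CPM in normal. It was 2.14-fold higher (1.84 to 2.48) in continuous. Cd36 (ENSMUSG00000002944), the fatty acid receptor, stood at 1145 CPM in pretreatment, 1468 CPM in continuous, 1007 CPM in chronic, 1265 CPM in acute, 1134 CPM in irradiated and 892 CPM in normal, with no ratio past 2-fold. Fabp5 (ENSMUSG00000027533), a fatty acid carrier shared with keratinocytes, stood at 5574 CPM in pretreatment, 918 CPM in continuous, 1128 CPM in chronic, 340.2 CPM in acute, 336 CPM in irradiated and 309.6 CPM in normal, and 1 cell held 53.8% of the UMIs in pretreatment (2574 CPM without it) and 1 cell held 62.2% of the UMIs in chronic (426 CPM without it). It was 16.6-fold higher (14.4 to 19.1, and 9.69-fold higher without the highest cell) in pretreatment and 3.35-fold higher (2.87 to 3.94, and 1.6-fold higher without the highest cell) in chronic, where it was 1.15-fold lower without the marked cells. Lpl (ENSMUSG00000015568) stood at 663 CPM in pretreatment, 395 CPM in continuous, 204 CPM in chronic, 301 CPM in acute, 253 CPM in irradiated and 116 CPM in normal. It was 2.19-fold higher (1.74 to 2.75, and 3.31-fold higher without the marked cells) in irradiated against normal. Angptl4 (ENSMUSG00000002289), an inhibitor of that lipase, stood at 155 CPM in pretreatment, 254 CPM in continuous, 145 CPM in chronic, 299.7 CPM in acute, 365 CPM in irradiated and 292 CPM in normal. It was 2.36-fold lower (1.96 to 2.85) in pretreatment and 2.52-fold lower (1.96 to 3.28) in chronic against irradiated.

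Adhesion and inflammatory genes had many ratios past 2-fold lower in pretreatment, fewer in continuous and chronic, and none in acute. Against irradiated, the adhesion and NF-kB list had 0 of 21 genes past 2-fold higher and 12 lower in pretreatment (median log2 ratio -1.40, and -1.57 after thinning) and 0 of 21 higher and 9 lower in continuous (median -0.93). The adhesion and NF-kB counts in chronic were 0 of 21 higher and 8 lower (median -0.66), and in acute 0 of 23 and 0 (median 0.01). Of 23 adhesion and NF-kB genes, 1 stood higher and 0 lower in irradiated against normal (median 0.49). The adhesion and NF-kB list without the marked cells had 0 of 20 higher and 14 lower in pretreatment (median -1.87) and 0 of 20 higher and 9 lower in chronic (median -1.06). Vcam1 (ENSMUSG00000027962), an adhesion molecule for lymphocytes and monocytes, stood at 29.7 CPM in pretreatment, 63.8 CPM in continuous, 92.0 CPM in chronic, 259 CPM in acute, 356 CPM in irradiated and 199 CPM in normal. It was 12.0-fold lower (8.61 to 17.0, and 20.9-fold lower without the marked cells) in pretreatment, 5.58-fold lower (4.10 to 7.72, and 9.87-fold lower without the marked cells) in continuous and 3.87-fold lower (2.86 to 5.31) in chronic. Icam1 (ENSMUSG00000037405), which neutrophils bind, stood at 319 CPM in pretreatment, 353 CPM in continuous, 359 CPM in chronic, 412 CPM in acute, 489 CPM in irradiated and 341 CPM in normal. It was 1.53-fold lower (1.32 to 1.78) in pretreatment and 1.39-fold lower (1.18 to 1.64) in continuous, so its spread was narrower. Vcam1 thus had the order of Esm1 and Apln over pretreatment, continuous, chronic, acute and irradiated, with irradiated highest. Median member depth ran the opposite way here too, so the same limit holds. Csf3 (ENSMUSG00000038067), the neutrophil growth factor, was 9.50-fold lower (5.76 to 16.7) in chronic against irradiated (29.0 CPM in chronic, against 275 CPM in irradiated). It was 2.40-fold higher (1.92 to 3.0) in irradiated against normal, where normal had 115 CPM. Csf3 was found in 21.3% of members and 26.3% of non-endothelial cells in irradiated, and in 10.4% and 12.2% in chronic. Sele (ENSMUSG00000026582) stood at 0.690 CPM in pretreatment, 6.25 CPM in continuous, 5.11 CPM in chronic, 20.8 CPM in acute, 22.5 CPM in irradiated and 18.9 CPM in normal. In pretreatment, continuous and chronic against irradiated its UMIs over both sums fell short of the 20 needed, so no ratio is read. Low levels of Sele here are tied to the rule, which left venous cells out. Beside the chemokine Cxcl2 (ENSMUSG00000058427), 39.3-fold lower (34.0 to 45.7, and 20.7-fold lower without the marked cells) in pretreatment, other kept cells stood at 2201 CPM in pretreatment and 26290 CPM in irradiated, and the neutrophil marker sum of members was 31.7 and 4028 CPM; the part of neutrophil RNA in the difference was not tested.

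Against irradiated, the type I interferon list had 0 of 23 genes past 2-fold higher and 13 lower in pretreatment (median log2 ratio -1.22, and -0.68 after thinning) and 3 of 23 higher and 0 lower in continuous (median 0.11). The type I interferon counts in chronic were 0 of 22 higher and 5 lower (median -0.33), and in acute 1 of 23 and 0 (median 0.17). Of 22 type I interferon genes, 5 stood higher and 0 lower in irradiated against normal (median 0.43). The type I interferon list without the marked cells had 0 of 20 higher and 2 lower in chronic (median -0.02) and 2 of 21 higher and 0 lower in irradiated against normal (median 0.39). Irf7 (ENSMUSG00000025498), the factor that amplifies interferon responses, stood at 36.6 CPM in pretreatment, 140.1 CPM in continuous, 101 CPM in chronic, 152 CPM in acute, 124 CPM in irradiated and 37 CPM in normal. It was 3.35-fold higher (2.31 to 4.89) in irradiated against normal and 3.39-fold lower (2.36 to 4.90) in pretreatment against irradiated. Other kept cells of the same libraries stood at 155 CPM in irradiated and 44.2 CPM in normal, so the same direction was seen outside the endothelium. Ifi44 (ENSMUSG00000028037) stood at 20.7 CPM in pretreatment, 73.8 CPM in continuous, 69.8 CPM in chronic, 90.3 CPM in acute, 116 CPM in irradiated and 55.9 CPM in normal. It was 2.07-fold higher (1.48 to 2.91) in irradiated against normal and 5.60-fold lower (3.61 to 8.88) in pretreatment against irradiated. Ifit2 (ENSMUSG00000045932) was 3.21-fold higher (1.81 to 6.08) in continuous (77.5 CPM in continuous, against 24.1 CPM in irradiated), and Rsad2 (ENSMUSG00000020641), an antiviral enzyme, 3.73-fold lower (2.60 to 5.47) in chronic (64.7 CPM in chronic, against 241 CPM in irradiated).

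Against irradiated, the interferon-gamma and antigen presentation list had 0 of 27 genes past 2-fold higher and 16 lower in pretreatment (median log2 ratio -1.30, and -0.86 after thinning) and 2 of 27 higher and 0 lower in continuous (median 0.00). The interferon-gamma and antigen presentation counts in chronic were 2 of 27 higher and 0 lower (median 0.12), and in acute 0 of 27 and 0 (median -0.20). Of 27 interferon-gamma and antigen presentation genes, 0 stood higher and 0 lower in irradiated against normal (median 0.17). Psmb8 (ENSMUSG00000024338), an immunoproteasome subunit, stood at 135 CPM in pretreatment, 229 CPM in continuous, 249 CPM in chronic, 105 CPM in acute, 113 CPM in irradiated and 131 CPM in normal. It was 2.03-fold higher (1.53 to 2.72) in continuous and 2.21-fold higher (1.65 to 2.98) in chronic. Cd74 (ENSMUSG00000024610), the invariant chain of MHC class II, stood at 33.1 CPM in pretreatment, 365 CPM in continuous, 407 CPM in chronic, 331 CPM in acute, 266 CPM in irradiated and 236 CPM in normal, and 1 cell held 76.4% of the UMIs in continuous (86.3 CPM without it). It was 8.02-fold lower (5.78 to 11.3) in pretreatment, while the other kept cells had 8409 CPM in pretreatment and 2250 CPM in irradiated, the opposite order. In chronic 1 cell held 43.9% of its UMIs, and without it the level was 228 CPM, near the 217 CPM of irradiated without its highest cell. With all members, continuous, chronic and acute had no gene of this list past 2-fold lower than irradiated. Without the marked cells it was 1 in continuous and 1 in chronic, and without the highest cell of each gene 2 in continuous and 2 in chronic.

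Most matrix genes stood past 2-fold lower in pretreatment. Against irradiated, the basement membrane and matrix list had 2 of 17 genes past 2-fold higher and 11 lower in pretreatment (median log2 ratio -1.16, and -0.98 after thinning) and 2 of 17 higher and 5 lower in continuous (median -0.53). The basement membrane and matrix counts in chronic were 0 of 17 higher and 2 lower (median -0.27), and in acute 1 of 17 and 0 (median -0.13). Of 17 basement membrane and matrix genes, 0 stood higher and 0 lower in irradiated against normal (median -0.14). Col4a1 (ENSMUSG00000031502), the main collagen chain of vessel basement membranes, stood at 912 CPM in pretreatment, 1527 CPM in continuous, 2111 CPM in chronic, 2410 CPM in acute, 2726 CPM in irradiated and 3024 CPM in normal. It was 2.99-fold lower (2.78 to 3.22) in pretreatment, with normal highest. Hspg2 (ENSMUSG00000028763), perlecan, stood at 264 CPM in pretreatment, 331 CPM in continuous, 523 CPM in chronic, 756 CPM in acute, 743 CPM in irradiated and 760.4 CPM in normal. It was 2.24-fold lower (1.92 to 2.62) in continuous. Fn1 (ENSMUSG00000026193), fibronectin, which fibroblasts make too, stood at 138 CPM in pretreatment, 263 CPM in continuous, 206 CPM in chronic, 693 CPM in acute, 769 CPM in irradiated and 431 CPM in normal. It was 5.57-fold lower (4.72 to 6.61) in pretreatment, 2.93-fold lower (2.49 to 3.46) in continuous and 3.73-fold lower (3.05 to 4.59) in chronic, and without the marked cells 19.9-fold lower, 4.35-fold lower and 5.36-fold lower. Lamb2 (ENSMUSG00000052911), a laminin chain, went the other way, at 104 CPM in pretreatment, 128 CPM in continuous, 73.3 CPM in chronic, 57.9 CPM in acute, 45.1 CPM in irradiated and 62.7 CPM in normal. It was 2.31-fold higher (1.54 to 3.60) in pretreatment and 2.83-fold higher (1.85 to 4.47) in continuous. Mgp (ENSMUSG00000030218), matrix Gla protein, stood at 544 CPM in pretreatment, 433 CPM in continuous, 23.9 CPM in chronic, 272 CPM in acute, 98.2 CPM in irradiated and 128 CPM in normal, and 1 cell held 65.6% of the UMIs in irradiated (33.8 CPM without it). Its 5.54-fold ratio of pretreatment to irradiated turned to a log2 ratio of -0.85 without the marked cells.

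Against irradiated, the flow and vessel tone list had 0 of 14 genes past 2-fold higher and 8 lower in pretreatment (median log2 ratio -1.05, and 0.22 after thinning) and 0 of 14 higher and 2 lower in continuous (median -0.03). The flow and vessel tone counts in chronic were 0 of 14 higher and 1 lower (median -0.41), and in acute 0 of 15 and 0 (median 0.02). Of 15 flow and vessel tone genes, 0 stood higher and 0 lower in irradiated against normal (median 0.28). Edn1 (ENSMUSG00000021367), which encodes the vasoconstrictor endothelin, stood at 20.7 CPM in pretreatment, 139 CPM in continuous, 211 CPM in chronic, 214 CPM in acute, 303 CPM in irradiated and 235 CPM in normal. It was 14.6-fold lower (9.90 to 22.3) in pretreatment and 2.18-fold lower (1.71 to 2.78) in continuous. Plat (ENSMUSG00000031538), tissue plasminogen activator, stood at 40.7 CPM in pretreatment, 72.5 CPM in continuous, 86.9 CPM in chronic, 183 CPM in acute, 198 CPM in irradiated and 202 CPM in normal. It was 4.86-fold lower (3.54 to 6.75, and 8.47-fold lower without the marked cells) in pretreatment, 2.73-fold lower (1.98 to 3.80) in continuous and 2.28-fold lower (1.63 to 3.22) in chronic. Edn1 stood higher in irradiated than in the 4 patch labels. Plat stood higher in irradiated than in pretreatment, continuous and chronic, and was about as high in acute and normal as in irradiated. Klf2 (ENSMUSG00000055148), the flow-induced transcription factor, stood at 242 CPM in pretreatment, 340.1 CPM in continuous, 254 CPM in chronic, 233 CPM in acute, 254 CPM in irradiated and 212 CPM in normal, with no ratio past 2-fold. Nos3 (ENSMUSG00000028978), which makes nitric oxide, stood at 46.9 CPM in pretreatment, 90.0 CPM in continuous, 69.8 CPM in chronic, 105 CPM in acute, 99.8 CPM in irradiated and 95.1 CPM in normal. It was 2.13-fold lower (1.48 to 3.04) in pretreatment.

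Against irradiated, the angiocrine list had 2 of 17 genes past 2-fold higher and 7 lower in pretreatment (median log2 ratio -0.88, and -1.78 after thinning) and 3 of 17 higher and 6 lower in continuous (median -0.48). The angiocrine counts in chronic were 2 of 18 higher and 3 lower (median -0.09), and in acute 0 of 16 and 1 (median -0.45). Of 16 angiocrine genes, 4 stood higher and 0 lower in irradiated against normal (median 0.28). The angiocrine list without the marked cells had 5 of 17 higher and 4 lower in chronic (median -0.02) and 2 of 15 higher and 0 lower in irradiated against normal (median 0.09). Pdgfb (ENSMUSG00000000489), which draws pericytes to vessels, stood at 56.6 CPM in pretreatment, 204 CPM in continuous, 147 CPM in chronic, 339 CPM in acute, 451 CPM in irradiated and 279 CPM in normal. It was 3.08-fold lower (2.41 to 3.96) in chronic. Cxcl12 (ENSMUSG00000061353), the ligand of Cxcr4, stood at 687 CPM in pretreatment, 760.3 CPM in continuous, 491 CPM in chronic, 368 CPM in acute, 369 CPM in irradiated and 543 CPM in normal. It was 2.06-fold higher (1.77 to 2.41, and 3.18-fold higher without the marked cells) in continuous against irradiated. Igfbp3 (ENSMUSG00000020427), which binds insulin-like growth factors, stood at 690.1 CPM in pretreatment, 410.2 CPM in continuous, 956 CPM in chronic, 939 CPM in acute, 1699 CPM in irradiated and 776 CPM in normal, and 1 cell held 80.4% of the UMIs in pretreatment (135 CPM without it). It was 4.14-fold lower (3.66 to 4.70) in continuous. Igfbp7 (ENSMUSG00000036256), of the same family, stood at 2759 CPM in pretreatment, 3496 CPM in continuous, 2707 CPM in chronic, 1300 CPM in acute, 1377 CPM in irradiated and 1694 CPM in normal. It was 2.00-fold higher (1.86 to 2.16) in pretreatment and 2.54-fold higher (2.35 to 2.74) in continuous. In pretreatment and continuous, Igfbp3 thus stood below irradiated and Igfbp7 above it.

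Iron handling was of interest because deferoxamine binds iron. Against irradiated, the iron handling list had 1 of 10 genes past 2-fold higher and 6 lower in pretreatment (median log2 ratio -1.08, and -0.93 after thinning) and 0 of 10 higher and 3 lower in continuous (median -0.39). The iron handling counts in chronic were 0 of 9 higher and 2 lower (median -0.38), and in acute 0 of 10 and 0 (median 0.28). Of 10 iron handling genes, 0 stood higher and 0 lower in irradiated against normal (median -0.01). Tfrc (ENSMUSG00000022797), the transferrin receptor, whose RNA iron shortage stabilises, stood at 60.7 CPM in pretreatment, 38.8 CPM in continuous, 54.5 CPM in chronic, 70.6 CPM in acute, 56.3 CPM in irradiated and 57.4 CPM in normal, and every interval of its 5 ratios reached across 1. Fth1 (ENSMUSG00000024661), the ferritin heavy chain, stood at 2461 CPM in pretreatment, 5619 CPM in continuous, 4470 CPM in chronic, 6847 CPM in acute, 5490 CPM in irradiated and 5488 CPM in normal. It was 2.23-fold lower (2.13 to 2.34) in pretreatment, and 1.25-fold higher (1.20 to 1.30) in acute against irradiated. Hmox1 (ENSMUSG00000005413), which frees iron from haem, stood at 161 CPM in pretreatment, 138 CPM in continuous, 487 CPM in chronic, 735 CPM in acute, 636 CPM in irradiated and 1037 CPM in normal. It was 3.95-fold lower (3.35 to 4.67) in pretreatment and 4.62-fold lower (3.73 to 5.76) in continuous, and Slc25a37 (ENSMUSG00000034248), the mitochondrial iron importer, was 6.18-fold lower (3.63 to 10.9) in pretreatment and 3.79-fold lower (2.18 to 6.87) in continuous. Slc25a37 is most abundant in developing red cells. Erythroid RNA stood at 38.6 CPM in pretreatment and 4351 CPM in continuous, against 1727 CPM in irradiated, and its part was not tested. Hmox1 was found in 53.6% of members and 65.5% of non-endothelial cells in irradiated, and in 24.8% and 40.8% in continuous.

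Against irradiated, the hypoxia and glycolysis list had 0 of 18 genes past 2-fold higher and 9 lower in pretreatment (median log2 ratio -1.03, and -1.20 after thinning) and 0 of 19 higher and 5 lower in continuous (median -0.53). The hypoxia and glycolysis counts in chronic were 0 of 18 higher and 3 lower (median -0.09), and in acute 0 of 19 and 0 (median -0.09). Of 19 hypoxia and glycolysis genes, 0 stood higher and 0 lower in irradiated against normal (median 0.23). The hypoxia and glycolysis list without the marked cells had 2 of 18 higher and 7 lower in pretreatment (median -0.41) and 0 of 16 higher and 3 lower in continuous (median -0.34). Vegfa (ENSMUSG00000023951), the growth factor of sprouting that endothelial cells themselves make little of, stood at 62.1 CPM in pretreatment, 26.3 CPM in continuous, 66.4 CPM in chronic, 131 CPM in acute, 91.7 CPM in irradiated and 136 CPM in normal. It was 3.49-fold lower (2.08 to 6.07, and 1.88-fold lower without the marked cells) in continuous. Adm (ENSMUSG00000030790), the vasodilator adrenomedullin, stood at 33.1 CPM in pretreatment, 35.0 CPM in continuous, 40.9 CPM in chronic, 82.2 CPM in acute, 111 CPM in irradiated and 83.1 CPM in normal. It was 3.35-fold lower (2.29 to 4.95, and 11.5-fold lower without the marked cells) in pretreatment, 3.17-fold lower (2.02 to 5.11) in continuous and 2.72-fold lower (1.69 to 4.52) in chronic, and Pgk1 (ENSMUSG00000062070), a glycolytic enzyme, was 3.36-fold lower (2.75 to 4.13) in pretreatment (114 CPM in pretreatment, against 383 CPM in irradiated). With all members, no gene of this list stood past 2-fold higher in any of the 5 comparisons. Without the marked cells 2 did in pretreatment and 1 in acute.

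The stress lists differed among themselves. Against irradiated, the heat shock list had 0 of 11 genes past 2-fold higher and 4 lower in pretreatment (median log2 ratio -0.43, and -0.78 after thinning) and 0 of 11 higher and 2 lower in continuous (median -0.38). The heat shock counts in chronic were 0 of 11 higher and 0 lower (median -0.13), and in acute 0 of 11 and 0 (median -0.17). Of 11 heat shock genes, 0 stood higher and 0 lower in irradiated against normal (median 0.29). Hspa1b (ENSMUSG00000090877), an inducible chaperone with a near-identical copy in Hspa1a that makes its count uncertain, stood at 712 CPM in pretreatment, 1915 CPM in continuous, 2962 CPM in chronic, 3684 CPM in acute, 4304 CPM in irradiated and 2448 CPM in normal. It was 6.04-fold lower (5.62 to 6.50) in pretreatment and 2.25-fold lower (2.11 to 2.40) in continuous. Against irradiated, the immediate early list had 2 of 16 genes past 2-fold higher and 3 lower in pretreatment (median log2 ratio 0.30, and 0.05 after thinning) and 0 of 16 higher and 1 lower in continuous (median -0.24). The immediate early counts in chronic were 0 of 16 higher and 0 lower (median -0.26), and in acute 0 of 16 and 0 (median 0.15). Of 16 immediate early genes, 0 stood higher and 1 lower in irradiated against normal (median -0.07). Fos (ENSMUSG00000021250) stood at 1260 CPM in pretreatment, 749 CPM in continuous, 554 CPM in chronic, 840.2 CPM in acute, 583 CPM in irradiated and 812 CPM in normal. It was 2.16-fold higher (1.93 to 2.43) in pretreatment. Klf6 (ENSMUSG00000000078) stood at 387 CPM in pretreatment, 599 CPM in continuous, 787 CPM in chronic, 1349 CPM in acute, 1336 CPM in irradiated and 1146 CPM in normal. It was 3.45-fold lower (3.10 to 3.85) in pretreatment and 2.23-fold lower (1.99 to 2.50) in continuous. Dusp1 (ENSMUSG00000024190), a phosphatase induced by stress, was 2.24-fold lower (2.02 to 2.48) in pretreatment, so the immediate early genes were split.

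Against irradiated, the p53 target list had 0 of 15 genes past 2-fold higher and 7 lower in pretreatment (median log2 ratio -0.88, and -0.60 after thinning) and 2 of 15 higher and 3 lower in continuous (median -0.59). The p53 target counts in chronic were 0 of 14 higher and 2 lower (median -0.43), and in acute 0 of 15 and 0 (median 0.06). Of 15 p53 target genes, 2 stood higher and 0 lower in irradiated against normal (median 0.72). The p53 target list without the marked cells had 3 of 15 higher and 1 lower in continuous (median -0.17), 2 of 14 higher and 1 lower in chronic (median -0.03), 0 of 14 higher and 0 lower in acute (median 0.39) and 3 of 15 higher and 0 lower in irradiated against normal (median 0.37). Gdf15 (ENSMUSG00000038508), a stress cytokine, stood at 164 CPM in pretreatment, 719 CPM in continuous, 317 CPM in chronic, 357 CPM in acute, 217 CPM in irradiated and 83.8 CPM in normal. It was 2.59-fold higher (2.00 to 3.36) in irradiated against normal and 3.31-fold higher (2.74 to 4.02) in continuous against irradiated. Cdkn1a (ENSMUSG00000023067), a cell cycle inhibitor, stood at 522 CPM in pretreatment, 832 CPM in continuous, 646 CPM in chronic, 763 CPM in acute, 742 CPM in irradiated and 439.5 CPM in normal. It was 1.69-fold higher (1.49 to 1.91) in irradiated against normal, short of 2-fold. Mdm2 (ENSMUSG00000020184), the p53 ligase, stood at 56.6 CPM in pretreatment, 77.5 CPM in continuous, 112 CPM in chronic, 206 CPM in acute, 171 CPM in irradiated and 142 CPM in normal. It was 3.01-fold lower (2.24 to 4.07) in pretreatment and 2.20-fold lower (1.59 to 3.06) in continuous. Against irradiated, the proliferation list had 1 of 19 genes past 2-fold higher and 7 lower in pretreatment (median log2 ratio -0.93, and -0.97 after thinning) and 1 of 17 higher and 8 lower in continuous (median -0.98). The proliferation counts in chronic were 0 of 16 higher and 6 lower (median -0.65), and in acute 0 of 17 and 1 (median -0.28). Of 19 proliferation genes, 1 stood higher and 0 lower in irradiated against normal (median 0.20). The proliferation list without the marked cells had 1 of 16 higher and 10 lower in continuous (median -1.39), 0 of 13 higher and 9 lower in chronic (median -1.86) and 5 of 17 higher and 0 lower in irradiated against normal (median 0.77). Cells with at least 2 UMIs of that list made up 48.5% in pretreatment, 33.1% in continuous, 38.7% in chronic, 28.9% in acute, 33.3% in irradiated and 42.5% in normal of members, at unequal depth.

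Against irradiated, the mesenchymal transition list had 4 of 18 genes past 2-fold higher and 3 lower in pretreatment (median log2 ratio -0.53, and -0.52 after thinning) and 3 of 17 higher and 3 lower in continuous (median -0.13). The mesenchymal transition counts in chronic were 2 of 17 higher and 4 lower (median -0.43), and in acute 1 of 17 and 0 (median 0.03). Of 17 mesenchymal transition genes, 0 stood higher and 1 lower in irradiated against normal (median -0.01). The mesenchymal transition list without the marked cells had 3 of 18 higher and 6 lower in pretreatment (median -0.65). Tagln (ENSMUSG00000032085), a contractile protein, was 4.29-fold higher (2.74 to 7.01) in continuous (159 CPM in continuous, against 37.0 CPM in irradiated), and S100a4 (ENSMUSG00000001020) 3.37-fold higher (2.42 to 4.77) in continuous, 2.75-fold higher (1.94 to 3.97) in chronic and 2.25-fold higher (1.6 to 3.23) in acute. Pericyte or smooth muscle genes, Tagln among them, summed to 1276 CPM in continuous and 230.1 CPM in irradiated members, and S100a4 was 1.02-fold higher in chronic without the marked cells. Ccn2 (ENSMUSG00000019997), connective tissue growth factor, was 4.12-fold lower (3.10 to 5.55, and 8.11-fold lower without the marked cells) in continuous (80.0 CPM in continuous, against 329.9 CPM in irradiated).

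**Figure D5:**
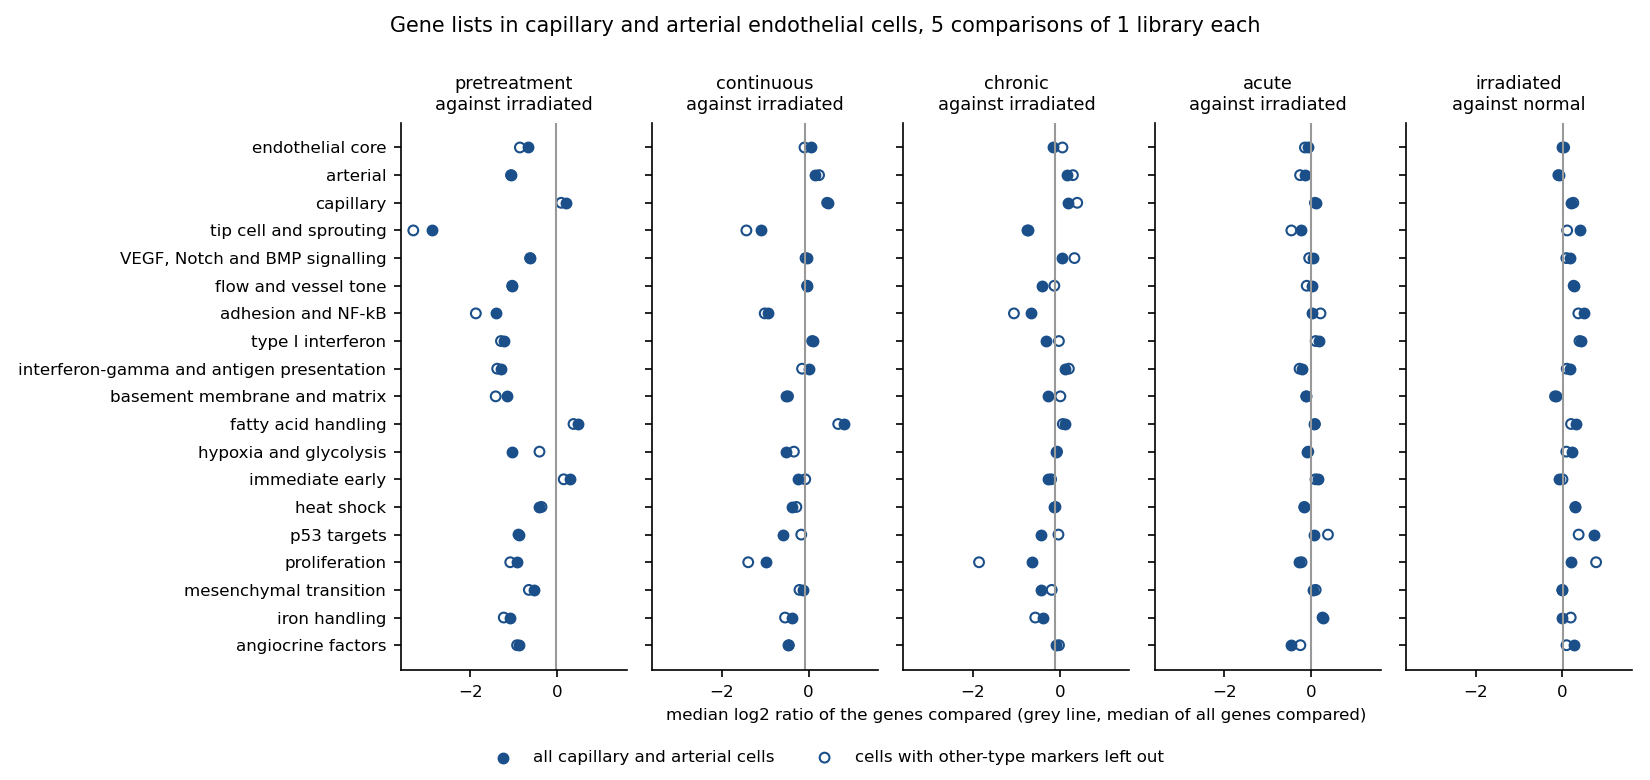
Median log2 ratio of 19 gene lists in 5 comparisons of 1 library each, with all capillary and arterial cells (filled) and with cells that carry other-type markers left out (open); the grey line is the median of all genes compared. The tip cell list lies at -2.88, -1.09 and -0.74 in pretreatment, continuous and chronic against irradiated, while the filled points of the capillary and fatty acid lists lie right of the line in all 5 panels. After thinning, which is not drawn, the capillary list stood at -0.04 and the fatty acid list at -0.03 in acute.

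The genes with the largest ratios, with at least 100 UMIs and 50 CPM in the higher library and a level there at least that of all other kept cells, fell into those carried by many cells and those carried by few. In pretreatment against irradiated, the genes with the highest ratios included Krt79, Fxyd3, Fa2h, Ldhb, Elovl6, Cilp and Akr1c18. Krt79 (ENSMUSG00000061397), a keratin, had 519.6 CPM in pretreatment, against 3.22 CPM in irradiated, with its UMIs in 4 members, 1 of which held 49.9%. Over these genes, UMIs lay in 3 to 12 of 97 members. Fa2h and Elovl6 serve lipid synthesis and are known from sebaceous cells, and they were thus carried by a few cells. The genes with the lowest ratios included Esm1, Apln, Cstdc5, Angpt2, Itgb3, Inhbb and Stc1, where Cstdc5 belongs to a family of near-identical genes and its count is uncertain. Itgb3 (ENSMUSG00000020689), an integrin chain of growing vessels, stood at 5.52 CPM in pretreatment, 31.3 CPM in continuous, 61.3 CPM in chronic, 116 CPM in acute, 179 CPM in irradiated and 101 CPM in normal. It was 32.4-fold lower (15.9 to 76.8) in pretreatment and 5.71-fold lower (3.68 to 9.21) in continuous, and in irradiated it was found in 50 of 183 members (27.3%), against 3.36% of non-endothelial cells. Stc1 (ENSMUSG00000014813), the secreted glycoprotein stanniocalcin, stood at 20.0 CPM in pretreatment, 191 CPM in continuous, 167 CPM in chronic, 197 CPM in acute, 373 CPM in irradiated and 160.1 CPM in normal. It was 18.7-fold lower (12.6 to 28.5) in pretreatment against irradiated and 2.33-fold higher (1.93 to 2.82) in irradiated against normal. Inhbb (ENSMUSG00000037035), a subunit of activin, was 21.5-fold lower (12.4 to 40.4) (9.66 CPM in pretreatment, against 208 CPM in irradiated).

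In continuous against irradiated, the highest ratios were those of Crabp1, Saa1, Rgs5, Apod, Timp4, Clic5, Cers4 and Mgp. Rgs5 (ENSMUSG00000026678), a pericyte marker, stood at 878 CPM in pretreatment, 714 CPM in continuous, 81.8 CPM in chronic, 311 CPM in acute, 80.5 CPM in irradiated and 295 CPM in normal. It was 8.88-fold higher (6.64 to 12.1) in continuous and 3.87-fold higher (2.85 to 5.34) in acute against irradiated, and 3.66-fold lower (2.72 to 5.02) in irradiated against normal. Clic5 (ENSMUSG00000023959) stood at 107 CPM in pretreatment, 140.1 CPM in continuous, 69.8 CPM in chronic, 47.5 CPM in acute, 24.1 CPM in irradiated and 21.1 CPM in normal. It was 5.80-fold higher (3.37 to 10.7) in continuous, with UMIs in 54 of 157 members (34.4%), against 0.379% of non-endothelial cells, and other kept cells at 1.63 CPM. In continuous 1 cell held 65.9% of the UMIs of Cers4 and 1 cell 58.6% of those of Apod, whose ratios were 5.03-fold higher (3.09 to 8.64, and 2.04-fold higher without the highest cell) for Cers4 and 8.72-fold higher (6.31 to 12.4, and 2.25-fold higher without the marked cells, and 4.66-fold higher without the highest cell) for Apod. Saa1 had 96.4% of its UMIs in 1 cell, and without that cell its log2 ratio was -1.04. Among the lowest ratios were those of Esm1, Mest, Cstdc5, Sox4, Apln, Itgb3 and Vcam1. Sox4 (ENSMUSG00000076431), a transcription factor, stood at 98.7 CPM in pretreatment, 108 CPM in continuous, 283 CPM in chronic, 650.4 CPM in acute, 787 CPM in irradiated and 695 CPM in normal. It was 7.32-fold lower (5.81 to 9.31) in continuous, and Mest (ENSMUSG00000051855), an imprinted gene, was 9.63-fold lower (6.32 to 15.3) (31.3 CPM in continuous, against 301 CPM in irradiated).

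In chronic against irradiated, the highest ratios were those of Wif1, Ly6d, Krt5, Defb6, Krt14, Lgals7, Sfn and Krtdap, most of them keratinocyte genes. All 235 UMIs of Wif1 (ENSMUSG00000020218), a Wnt inhibitor, were in 1 cell, and Krt5 and Krt14, keratins of basal keratinocytes, were found in 4 and 8 of 106 members. With the marked cells left out Krt14 was 2.18-fold lower and Lgals7 1.66-fold lower. Among the lowest were Prg4, Pi16, Esm1, Apln, Pcsk5, Vcam1 and Fn1. Prg4 and Pi16, known from fibroblasts, stood 33.5-fold lower (12.8 to 125) for Prg4 and 33.1-fold lower (12.6 to 123, and 16.7-fold lower without the highest cell) for Pi16, with 38.0% and 62.1% of their irradiated UMIs in 1 cell, and without the marked cells 1.36-fold lower and 1.82-fold lower; Pcsk5 turned to a log2 ratio of 1.95 there.

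In acute against irradiated, 6 genes met the rule on the higher side, Rgs5, Mgp, Cxcl14, Col5a3, Col6a2 and Mfap5, and Cstdc5, Pi16 and Esm1 on the lower side. Without the marked cells Cxcl14 and Mfap5 turned to log2 ratios of -1.78 and -2.04, while Col5a3, a fibrillar collagen chain, was 4.19-fold higher. In irradiated against normal, the highest ratios were those of Cstdc5, Dab2, Esm1, Pi16, Gdf15, Apln, Sgms1 and Stc1. Dab2 (ENSMUSG00000022150), an adaptor of endocytosis, stood at 49.7 CPM in pretreatment, 93.8 CPM in continuous, 95.4 CPM in chronic, 169 CPM in acute, 245 CPM in irradiated and 87.6 CPM in normal. It was 2.79-fold higher (2.18 to 3.59), with UMIs in 76 of 183 irradiated members (41.5%) and in 28.3% of non-endothelial cells, and Pi16 turned to a log2 ratio of -0.38 without the marked cells. The lowest were Pdgfrb, Rgs5, Lgi2, Enpp2, Rnd3, Egr3, Eln and Nts. Nts (ENSMUSG00000019890), the peptide neurotensin, stood at 0.690 CPM in pretreatment, 12.5 CPM in continuous, 32.4 CPM in chronic, 35.9 CPM in acute, 64.4 CPM in irradiated and 151 CPM in normal, and 1 cell held 51.6% of the UMIs in acute (17.4 CPM without it). It was 2.35-fold lower (1.66 to 3.38, and 3.75-fold lower without the highest cell) in irradiated against normal, and Enpp2 (ENSMUSG00000022425), the enzyme autotaxin, was 2.83-fold lower (1.96 to 4.20) (54.7 CPM in irradiated, against 155 CPM in normal). Pdgfrb and Rgs5 are pericyte markers, whose list summed to 230.1 CPM in irradiated and 597 CPM in normal members; Lgi2 turned to a log2 ratio of 1.08 without the marked cells, and Eln to 0.26 among members without any venous or lymphatic UMI.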

How the data were processed

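6 single-cell RNA libraries, 1 per label, were made with 10x 3' chemistry per the labels' protocols and read on a NextSeq 500. The deposited files hold counts of UMIs per gene and barcode as the authors' software wrote them, unnormalized, and the file headers name Cell Ranger 6.0.0. The submitters' processing notes name Cell Ranger, Seurat 5.0.1 and the pig genome Sscrofa11.1, while the gene identifiers are mouse. How reads shared between genes were counted is not given in the sources used here.

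Barcodes were filtered and gated on these counts as described, and 83559 cells were kept. The kept cells per library were 1499 in pretreatment, 8916 in continuous, 9180 in chronic, 24132 in acute, 22123 in irradiated and 17709 in normal. The median kept cell held 1385 to 9651 gene UMIs.

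Labels were compared by ratios of CPM over summed member UMIs with exact conditional binomial 95% intervals. A sum of 0 was set to 3 counts. Members and venous cells were summed per library and fitted with edgeR 4.0.16 (quasi-likelihood, library as a block, R 4.3.3), with DESeq2 1.42.0 as an alternative. The fit was tested on simulated data. Cells were thinned to 1000 UMIs with a fixed seed, and doublets were marked with Scrublet in scanpy 1.11.5.

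Genes named between labels were, in each direction, the 8 with the largest ratio past 2-fold that had at least 100 UMIs and 50 CPM in the higher library and at least the level of all other kept cells there. Up to 2 genes per list and direction with at least 50 UMIs, and 24 genes chosen for their roles, were added. Some genes that these rules name are not reported here. Members, lists and rules were chosen with earlier results of these data known. No sequences are shown, as no sequence tables were used here. The hashtag counts were not used to split libraries.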

Additional observations from a re-analysis of the deposited data

Results flagged for a closer look

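Antibody hashtag counts, which no comparison above uses, were present in 4 of the 6 libraries. A kept cell was given a tag when its highest tag had at least 10 UMIs and at least 3 times the next tag. By this rule 6055 of 9180 kept cells in chronic, 192 of 24132 in acute, 2862 of 22123 in irradiated and 15459 of 17709 in normal had 1 leading tag, and 23940 cells in acute had none. Most tagged cells of a library shared a tag: 6022 in chronic carried tag 8, while 2797 in irradiated and 15445 in normal carried tag 7. Among capillary and arterial cells, 87 of 106 in chronic carried tag 8, 20 of 183 in irradiated and 301 of 320 in normal carried tag 7, and 304 of 311 in acute had no leading tag. The labels used here do not tie a tag to an animal or a treatment.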

How the results depend on the processing

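No paired analysis was possible because each label was 1 library, so the comparisons between labels had no replicates, whatever number they carry. Between capillary and arterial and venous cells the library was a block in the main fit, and with no library block 22 genes stood higher and 30 lower, against 71 and 104 with it. Without 1 library in turn the counts ran over 29 to 317 higher and 41 to 229 lower, of 6332 to 6515 genes fitted. They were 512 and 164 of 19236 with no filter on low counts, and 33 and 33 of 1361 after thinning to 1000 UMIs. With marked cells left out 114 of 5369 stood higher.

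With at least 50 UMIs over both sums, fewer genes were compared, so these counts are to be read against that number. In pretreatment against irradiated 825 of 5911 stood past 2-fold higher. In continuous 248 stood higher and 384 lower of 4521, and in chronic 139 and 280 of 4022. In acute it was 43 and 46 of 4716, and in irradiated against normal 117 and 76 of 5564. With at least 1 UMI, 521 of 15382 were higher in chronic and 214 of 15416 lower in acute. In irradiated against normal 363 of 16089 were higher. After thinning to 1000 UMIs fewer genes were compared again. The counts higher and lower were 184 and 397 of 2363 for pretreatment and 160 and 291 of 2805 for continuous against irradiated. They were 68 and 164 of 2411 for chronic and 59 and 64 of 3777 for acute. For irradiated against normal they were 121 and 79 of 3791. Without the highest cell of each gene 770 of 8163 were higher in pretreatment and 148 of 6364 in chronic. In acute 75 of 7200 were then lower. The median over all genes in pretreatment against irradiated was -0.20 after thinning and -0.22 without the highest cell, against -0.03. TMM scaling moved no count by over 1.5 times.

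The share of capillary and arterial cells with a gate sum of at least 5 was 5.00% in pretreatment, 1.46% in continuous, 0.915% in chronic, 0.883% in acute, 0.583% in irradiated and 1.20% in normal. Thinned before the gate it was 4.01% in pretreatment, 1.30% in continuous and 1.47% in acute. Among cells of at least 1000 UMIs it was 1.64% in acute, 0.972% in irradiated and 2.25% in normal. Without any venous or lymphatic UMI it was 1.14% in acute, 0.692% in irradiated and 1.51% in normal. With marked cells left out it was 5.07% in pretreatment, 0.949% in acute, 0.642% in irradiated and 1.38% in normal. Pretreatment stood highest under each of these settings where it has a value here.

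Some log2 ratios turned sign, and the cause was not tested. In pretreatment against irradiated the endothelial core list stood at 0.08 after thinning, against -0.67 before. The flow and vessel tone list then stood at 0.22, Egr3 at -1.52, Car4 at 0.064 and Top2a at 0.80. Thinning also put the p53 target list at 0.51 and Hey1 at 0.30 in continuous, and Hey1 at -0.22 in irradiated against normal. With marked cells left out they were -0.85 for Mgp in pretreatment, -0.89 for Saa1 in continuous, -1.12 for Krt14, -0.73 for Lgals7, -0.18 for Sfn, -0.20 for Fabp5 and 1.95 for Pcsk5 in chronic, -1.78 for Cxcl14 and -2.04 for Mfap5 in acute, and -0.38 for Pi16 and 1.08 for Lgi2 in irradiated against normal. Without the highest cell Saa1 stood at -1.04 in continuous, and without any venous or lymphatic UMI Eln stood at 0.26 in irradiated against normal.

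These limits apply throughout. A single library a label leaves the spread between animals unknown. Depth and the presence of hashtags differed between labels and cannot be told apart from them. The labels and the gene identifiers disagree on the organism. With 97 to 320 cells a library, a gene under about 20 UMIs could not be compared.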
